A study of Mus musculus with 24 samples.

Results

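The 38 genes described here copy the genome and divide the cell: 16 act in DNA replication and 22 in mitosis. They were chosen by symbol from the deposited table of mouse embryonic kidney stroma, and all 38 were present among its 13803 genes. The replication members comprise 3 drivers of the G1/S transition, 9 genes of origin licensing and the helicase, and 4 genes of nucleotide supply and the sliding clamp. The mitosis members comprise 11 mitotic cyclins, kinases and checkpoint genes, 9 genes of the kinetochore, spindle and cytokinesis, and 2 genes of chromosome structure.

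Messenger RNA was sequenced in 24 libraries, 3 in each of 8 groups, from stromal cells sorted out of embryonic kidneys. The groups were SD (the genotype labelled β-catSD, deficient in β-catenin) on C57BL/6 at E13.5 and E12.5, SO (labelled β-catSO, stabilised β-catenin) on CD1 at E13.5 and E12.5, and wild-type cells of C57BL/6 and of CD1 at both embryonic days. The series record names a FoxD1Cre-eGFP transgene for the kidneys of all 3 genotypes, which as background marks cells of the Foxd1 lineage, the stromal progenitors and their descendants. It speaks of 3 kidneys for each genotype. Strain goes with the line, and the sources used here do not give the alleles behind either β-catenin genotype. Whether libraries of one group stem from different embryos is not stated in the labels, and p-values therefore describe only how far these libraries scatter, which may be technical.

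In dividing cells, E2F transcription factors switch on the replication genes as a cell passes from G1 into S phase. The MCM helicase is loaded at origins by Cdc6 and Cdt1 before S phase begins. The mitosis genes come on later, in G2, when the MuvB complex with B-Myb and FoxM1 acts at promoters that often carry CCAAT boxes and a cell cycle homology region (CHR). Foxd1-lineage stromal progenitors of the embryonic kidney divide, and β-catenin is a transcriptional effector of Wnt signalling. Bulk RNA levels cannot tell fewer cells in a phase from less RNA per cell.

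Library depth lay between 6.18 and 21.2 M reads. The level of the β-catenin target Axin2 went with the labels: it was lower in SD than in wild-type C57BL/6 at E13.5 (log2 difference -1.01) and E12.5 (-1.03), and higher in SO than in wild-type CD1 at E13.5 (3.73) and E12.5 (3.47). The level of Ctnnb1, which encodes β-catenin, differed by -0.16 and -0.31 in SD and by -0.08 and -0.12 in SO at E13.5 and E12.5, but a whole-gene count does not show the deleted or stabilising exon. None of the 12 stromal progenitor markers was at 0 in any library. Foxd1 was lower in SO than in wild-type CD1 by -1.26 at E13.5 and -0.77 at E12.5 on the log2 scale, and differed by 0.11 and -0.01 in SD. Other stromal markers moved in both directions. In SD, Tcf21 was lower at E13.5 (-1.31) and E12.5 (-1.44), and Pdgfrb was higher (0.41 and 0.34). In SO, Sall1 was lower at E13.5 (-2.14) and E12.5 (-1.6), and Tbx18 was higher at E13.5 (1.38).

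All 38 members were well measured, with 277 to 16356 reads per library and levels between 5.28 for Ccne2 and 9.81 for Top2a in log2 CPM, the log2 of read counts scaled to a common library size. Per kilobase of exon, the mean level over all libraries was highest for Pcna, the sliding clamp of the replication fork, at 202 CPM per kb. Top2a, the topoisomerase that untangles sister chromatids, had 136 CPM per kb and the helicase subunit Mcm4 100 CPM per kb. The lowest were the licensing factor Cdc6 at 13.1, the helicase component Gins2 at 14.6 and the transcription factor E2f1 at 15.5 CPM per kb. Transcripts of other genes shared a nearly identical stretch (95% or more over at least 200 bases, on either strand) with those of 11 members. Tyms matched 18 genes and Ccnb1 4, so reads from such a stretch may be shared. In Ccne2, Mcm7, Gins2, Ccna2 and Kif20a a match was the gene that overlaps the member on the opposite strand. Strand is a related uncertainty: 12 members, these included, overlap a gene on the opposite strand, and Kif11, Top2a, Cdc20 and Mki67 are among them. The sources used here do not state if counting was stranded.

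Start regions of replication and mitosis members are shown so that the letters of both sets can be compared. RefSeq windows of 300 bases (250 before to 50 after the gene's start, GRCm38.p6) were matched to 31 of the 38 members. Both strands were searched for 4 E2F words, namely TTCCCGC together with TTCGCGC and also the related TTGCCGC plus the fourth word TTGGCGC. The CHR word was TTTGAA and the CCAAT box was CCAAT itself, and overlapping matches were each counted. An E2F word lay in 64.3% of the 14 windows of replication members and 16.7% of the 18 windows of mitosis members, against 16.3% of the 13702 windows of genes in the table. CHR lay in 7.14% of the replication windows and 72.2% of the mitosis windows, against 11.6% of all windows in the table. CCAAT lay in 64.3% of the replication windows and 88.9% of the mitosis windows, against 37.4% of all windows. In the mitosis members the CHR match nearest the start lay at positions -98 to 41 (median 3 over 13 genes), and in the replication members the nearest E2F match lay at -235 to 25 (median -24.5 over 8 genes). A match is a run of letters and not a site shown to be bound. The 6 windows that follow belong to the replication members of smallest p among those lower in SO at E13.5 (Mcm6, Cdt1 and Mcm3) and the mitosis members of smallest p among those higher in SO at E12.5 (Kif11, Top2a and Aurka) that had one window with an E2F or CHR match. Rrm2, a replication member that was higher in SO at E12.5, also held 1 E2F word and no CHR, and its window is not printed. Capitals mark the E2F words and CCAAT boxes in the windows of Mcm6 (chr1:128359656-128359955, minus strand), Cdt1 (chr8:122567765-122568064, plus strand) and Mcm3 (chr1:20820263-20820562, minus strand), and the CHR words and CCAAT boxes in those of Kif11 (chr19:37376132-37376431, plus strand), Top2a (chr11:99024140-99024439, minus strand) and Aurka (chr2:172370521-172370820, minus strand).
Mcm6: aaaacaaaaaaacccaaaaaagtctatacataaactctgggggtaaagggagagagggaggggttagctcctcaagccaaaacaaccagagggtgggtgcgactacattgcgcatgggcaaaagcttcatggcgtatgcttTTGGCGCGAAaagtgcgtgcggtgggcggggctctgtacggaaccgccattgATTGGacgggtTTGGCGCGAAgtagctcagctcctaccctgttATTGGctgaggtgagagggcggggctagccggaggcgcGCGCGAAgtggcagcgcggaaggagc
Cdt1: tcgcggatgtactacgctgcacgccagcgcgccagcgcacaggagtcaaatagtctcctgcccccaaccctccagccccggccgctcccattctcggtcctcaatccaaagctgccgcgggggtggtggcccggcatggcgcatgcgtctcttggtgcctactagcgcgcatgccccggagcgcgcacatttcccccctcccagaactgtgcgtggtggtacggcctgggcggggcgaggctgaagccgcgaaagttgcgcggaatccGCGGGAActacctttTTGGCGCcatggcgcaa
Mcm3: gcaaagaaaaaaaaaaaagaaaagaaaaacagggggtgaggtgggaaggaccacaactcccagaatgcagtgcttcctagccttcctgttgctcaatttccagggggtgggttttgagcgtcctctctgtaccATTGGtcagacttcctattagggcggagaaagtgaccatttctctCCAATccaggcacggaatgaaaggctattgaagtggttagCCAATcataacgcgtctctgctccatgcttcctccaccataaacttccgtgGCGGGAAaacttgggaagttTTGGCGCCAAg
Kif11: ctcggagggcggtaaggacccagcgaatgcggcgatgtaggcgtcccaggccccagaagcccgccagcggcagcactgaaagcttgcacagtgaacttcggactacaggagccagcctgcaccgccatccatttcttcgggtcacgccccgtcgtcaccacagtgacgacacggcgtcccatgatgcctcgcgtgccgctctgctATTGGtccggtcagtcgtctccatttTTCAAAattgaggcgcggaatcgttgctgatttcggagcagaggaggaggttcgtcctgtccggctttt
Top2a: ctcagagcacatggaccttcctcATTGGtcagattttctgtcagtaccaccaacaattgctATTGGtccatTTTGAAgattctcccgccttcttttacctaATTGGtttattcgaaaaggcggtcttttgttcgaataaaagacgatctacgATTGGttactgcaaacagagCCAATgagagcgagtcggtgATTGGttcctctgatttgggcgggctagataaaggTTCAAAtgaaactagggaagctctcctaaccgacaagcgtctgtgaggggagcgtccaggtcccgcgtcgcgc
Aurka: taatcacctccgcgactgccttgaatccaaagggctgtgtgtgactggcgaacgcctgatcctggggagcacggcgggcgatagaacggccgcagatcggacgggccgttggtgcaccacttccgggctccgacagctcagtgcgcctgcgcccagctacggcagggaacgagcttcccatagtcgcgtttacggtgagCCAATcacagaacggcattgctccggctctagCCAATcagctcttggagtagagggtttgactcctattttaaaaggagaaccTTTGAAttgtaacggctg

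Mcm6, Cdt1 and Mcm3 held 5, 2 and 3 E2F words and no CHR. Kif11, Top2a and Aurka held 1, 2 and 1 CHR words and no E2F word. Top2a alone had 6 CCAAT boxes. Among the members with a window, an E2F word was present in 5 of the 6 replication members that were lower in SO at E13.5 (absent from Ccne1) and in 3 of the 7 that did not pass the test. CHR was present in 8 of the 10 mitosis members that were higher in SO at E12.5 (absent from Bub1 and Nusap1) and in 5 of the 8 that did not pass it. Whether members that passed and members that did not differ in these words was not tested.

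At E12.5, SO stroma carried more RNA of mitosis genes than wild-type CD1 stroma, while the replication genes, with Rrm2 as the exception, did not pass the test. A member was called when its adjusted p was under 0.05 in limma (Benjamini-Hochberg over 13803 genes). Of the 38 members, 15 rose and 0 fell, where 5.17% of all genes rose and 3% fell. The 15 were 14 of the 22 mitosis members and 1 of the 16 replication members. All 22 mitosis members had a log2 difference above 0, between 0.13 and 0.68 with a median of 0.37, against a median of 0.01 for the replication members and 0 for all genes.

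Kif11 (chr19:37376403-37421859, plus strand, GENCODE on GRCm38) encodes the motor that slides spindle microtubules apart. It had 7.71, 7.70 and 7.75 log2 CPM in SO at E12.5, against 7.15, 6.96 and 6.99 in wild-type CD1. The SO libraries lay above every wild-type library, and the log2 difference was 0.68 ± 0.10 (SE, n = 3 each), a fold of 1.61 with adjusted p = 0.000118. Top2a (chr11:98992943-99024189, minus strand) had 9.78, 9.74 and 9.81 log2 CPM in SO, against 9.20, 9.18 and 9.26 in wild-type CD1. Its groups did not overlap either, with a fold of 1.47 (log2 difference 0.56 ± 0.09, adjusted p = 0.000237).

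Among the mitotic kinases, Aurkb (chr11:69045647-69051664), which corrects faulty chromosome attachments, had 6.56, 6.56 and 6.80 log2 CPM in SO at E12.5, against 6.24, 6.00 and 6.04 in wild-type CD1. Aurka (chr2:172356190-172370535), which matures the spindle poles, had 6.74, 6.73 and 6.75 in SO, against 6.19, 6.16 and 6.39 in wild-type CD1. Neither gene's groups overlapped, and the folds were 1.46 for Aurkb (log2 difference 0.55 ± 0.10, adjusted p = 0.000578) and 1.41 for Aurka (0.50 ± 0.11, adjusted p = 0.00352). The checkpoint kinase Bub1 had 7.13, 7.11 and 7.14 log2 CPM in SO, against 6.68, 6.61 and 6.67 in wild-type CD1. The cyclin Ccna2, which acts in S phase and G2, had 8.08, 8.11 and 8.15 in SO, against 7.69, 7.57 and 7.71 in wild-type CD1. In both, the replicates of a group lay close together and the groups did not overlap, with folds of 1.39 for Bub1 (adjusted p = 0.00106) and 1.37 for Ccna2 (adjusted p = 0.000701).

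Nusap1, which bundles spindle microtubules, had 7.06, 6.94 and 6.99 log2 CPM in SO at E12.5, against 6.43, 6.54 and 6.42 in wild-type CD1, a fold of 1.45 (adjusted p = 0.00109). Plk1, the kinase of mitotic entry and exit, had 7.24, 7.07 and 7.37 in SO, against 6.73, 6.76 and 6.89 in wild-type CD1, a fold of 1.35 (adjusted p = 0.0104). Mki67, which coats mitotic chromosomes, had 9.54, 9.42 and 9.49 in SO, against 9.03, 9.15 and 9.10 in wild-type CD1. All 3 genes had SO libraries above the wild-type ones, though Mki67 passed the test narrowly (log2 difference 0.38 ± 0.11, adjusted p = 0.0264). The other mitosis members that rose were the spindle assembly factor Tpx2 (0.36 ± 0.08, adjusted p = 0.00516), the cytokinesis motor Kif20a (0.36 ± 0.09), the checkpoint kinase Bub1b (0.36 ± 0.09), the kinetochore protein Cenpf (0.50 ± 0.14) and Cdc20, which activates the anaphase-promoting complex (0.30 ± 0.09, adjusted p = 0.0291).

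Ccnb1, the cyclin of mitotic entry, illustrates a difference that did not pass with the spread shared across all groups. It had 7.81, 7.58 and 7.89 log2 CPM in SO at E12.5, against 7.33, 7.34 and 7.24 in wild-type CD1, so these groups did not overlap. Its wild-type C57BL/6 libraries at the same age read 7.61, 6.51 and 7.50, and with the spread shared across all groups the difference of 0.46 ± 0.21 did not pass (adjusted p = 0.211). Cdk1, the partner kinase of the mitotic cyclins, differed by 0.19 (adjusted p = 0.231), and the kinetochore motor Cenpe by 0.31 (adjusted p = 0.0748).

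Rrm2, the small subunit of ribonucleotide reductase, was the replication member that rose. It had 7.87, 7.72 and 7.92 log2 CPM in SO at E12.5, against 7.43, 7.23 and 7.39 in wild-type CD1, a fold of 1.40 (log2 difference 0.49 ± 0.08, adjusted p = 0.000486). Its large-subunit partner Rrm1 differed by 0.21 (adjusted p = 0.0576). The 6 MCM subunits differed by -0.05 to 0.04, and the 95% interval of Mcm6 ran from -0.13 to 0.11. Cdt1 differed by 0.01 (interval -0.17 to 0.19).

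**Figure D1:**
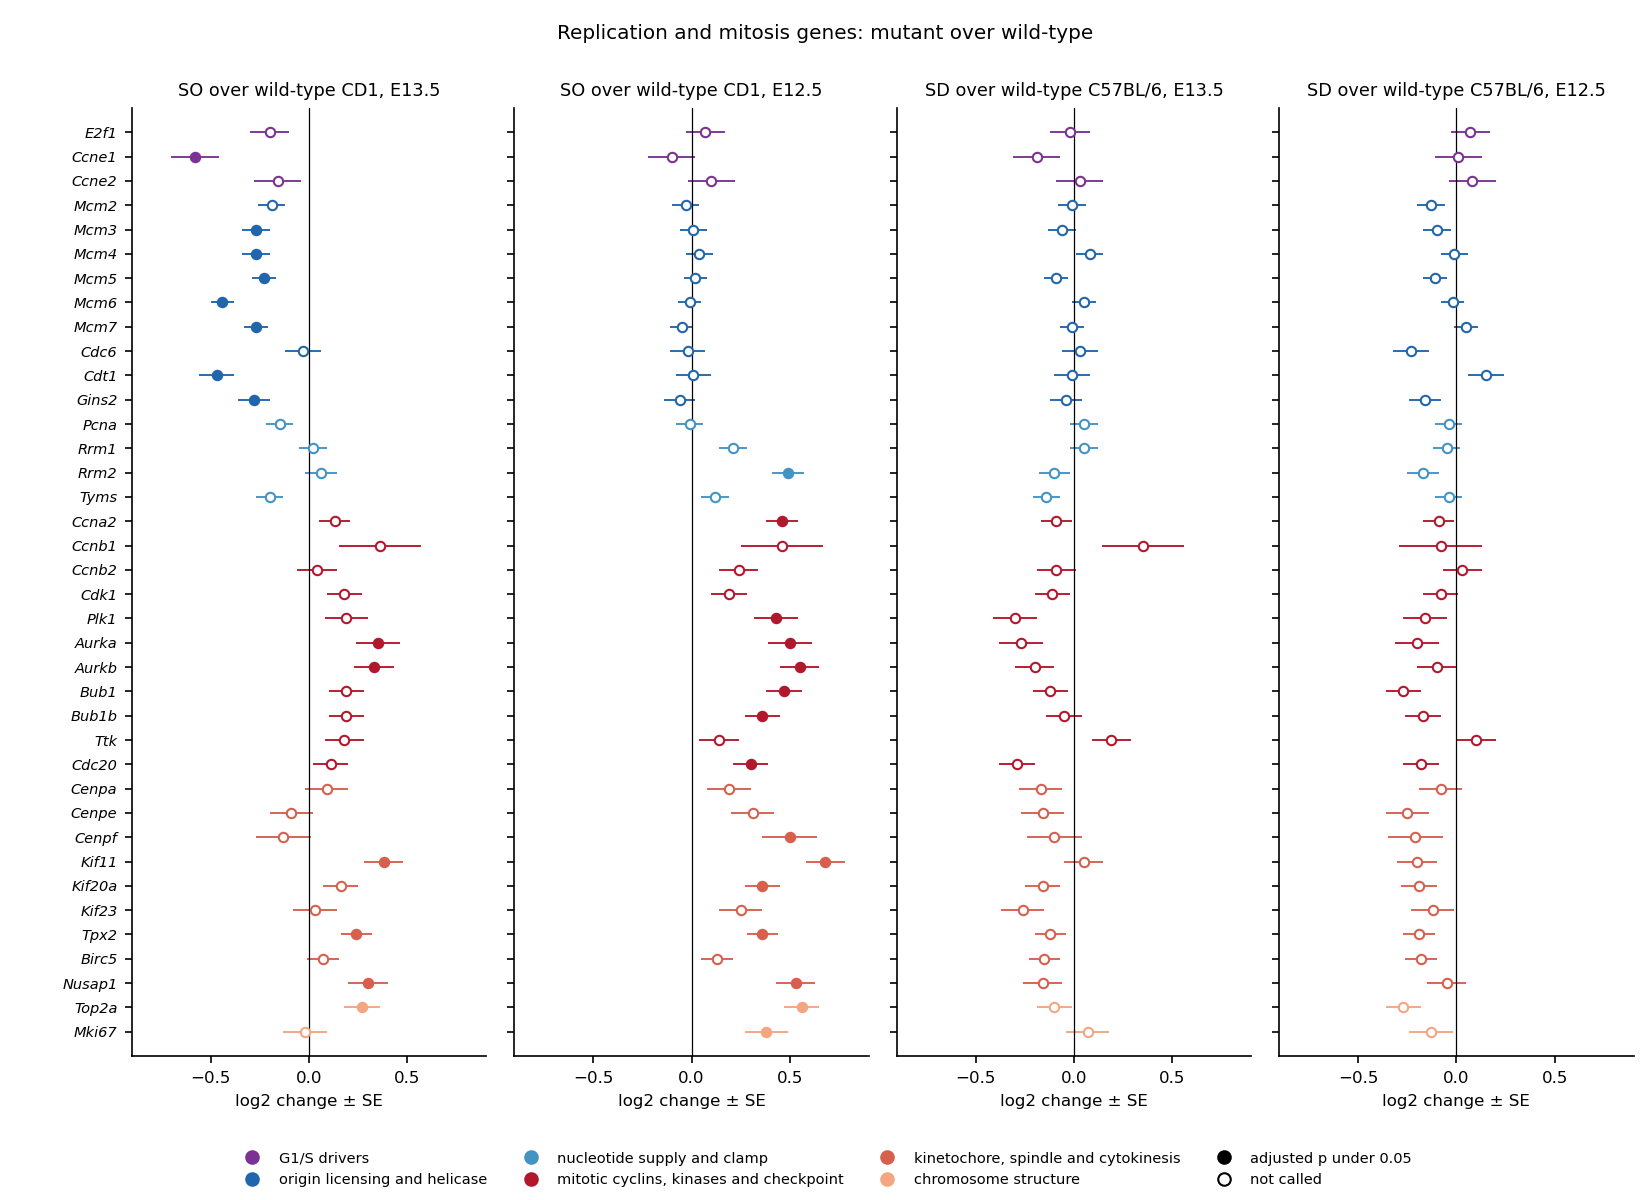
Log2 difference (SE as bars) of each of the 38 members, on the x axis, in 4 panels: SO against wild-type CD1 and SD against wild-type C57BL/6, each at E13.5 and E12.5, with filled points for adjusted p under 0.05 and colours for the 6 roles. In SO at E12.5 the mitosis members lie right of 0 and the MCM subunits at 0, in SO at E13.5 the MCM subunits lie left of 0, and no point of SD is filled.

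At E12.5 the sorts also differed in markers of other cells. The summed level of 7 liver markers was 0.548 to 0.979 CPM in SO, with 4 to 7 of the 7 genes at 0, against 187 to 203 CPM in wild-type CD1. That of 9 erythroid markers was 68.4 to 997 CPM in SO, against 3260 to 3380 CPM in wild-type CD1. Macrophage markers summed to 602 to 909 CPM in SO, against 877 to 911 CPM, and the 12 stromal progenitor markers to 9300 to 9650 CPM, against 11000 to 11300 CPM in wild-type CD1. The part of these cells in the mitosis differences was addressed only by covariates. The erythroid and liver sums of SO and wild-type CD1 did not overlap here, so these fits cannot tell genotype and admixed cells apart. With macrophage, endothelial and erythroid levels as covariates 7 members still rose (Kif11, Top2a, Rrm2, Aurkb, Ccna2, Bub1 and Nusap1), and with the liver level as a covariate, chosen after seeing the data, 10 did.

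At E13.5, SO stroma carried less RNA of most helicase subunits and of the loading factor Cdt1 than wild-type CD1 stroma, and more RNA of some mitosis genes. Of the 38 members, 6 rose and 8 fell, where 8.53% of all genes rose and 6.83% fell. All 8 that fell were replication members and all 6 that rose were mitosis members. The replication members had a median log2 difference of -0.22, with 14 of 16 below 0, and the mitosis members of 0.18, with 19 of 22 above 0, against -0.01 for all genes. By role, 7 of the 9 licensing and helicase genes fell, 5 of them among the 6 MCM subunits.

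Mcm6 (chr1:128331590-128359664, minus strand), a subunit of the MCM helicase, had 8.21, 8.15 and 8.16 log2 CPM in SO at E13.5, against 8.62, 8.71 and 8.52 in wild-type CD1. The highest SO library lay below the lowest library of every other group, which was 8.40 (in SD at E12.5). The log2 difference was -0.44 ± 0.06, a fold of 0.738 (adjusted p = 6.49e-06). Cdt1 (chr8:122568015-122573554, plus strand), which loads the helicase at origins, had 6.02, 5.97 and 5.83 in SO, against 6.47, 6.44 and 6.33 in wild-type CD1. These groups did not overlap, and the fold was 0.72 (log2 difference -0.47 ± 0.09, adjusted p = 0.000358).

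Ccne1 (chr7:38097984-38107534, minus strand), the cyclin that drives entry into S phase, had 6.85, 6.71 and 6.43 log2 CPM in SO at E13.5, against 6.98, 7.40 and 7.37 in wild-type CD1. The replicates of both groups spread widely but did not overlap, with a fold of 0.667 (-0.58 ± 0.12, adjusted p = 0.00134). Its paralogue Ccne2 differed by -0.16 (adjusted p = 0.388). The other members that fell were the helicase subunits Mcm7 (fold 0.83, adjusted p = 0.00361), Mcm3 (0.829, adjusted p = 0.00576), Mcm4 (0.83, adjusted p = 0.0118) and Mcm5 (0.853, adjusted p = 0.0132), and Gins2, part of the active helicase (0.823, adjusted p = 0.0137). Among these 8, the groups overlapped in Mcm4. Mcm5 had 8.09, 8.12 and 7.97 log2 CPM in SO, against 8.31, 8.36 and 8.21 in wild-type CD1.

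Several replication members lay lower without passing the test. Mcm2, the sixth helicase subunit, had 8.04, 7.91 and 7.98 log2 CPM in SO at E13.5, against 8.15, 8.18 and 8.16 in wild-type CD1 (difference -0.19, adjusted p = 0.0571). Pcna had 8.15, 8.31 and 8.09 in SO, against 8.36, 8.34 and 8.31 in wild-type CD1 (adjusted p = 0.167). E2f1, an activator of the replication genes, had 5.53, 5.59 and 5.46 in SO, against 5.69, 5.86 and 5.60 in wild-type CD1 (adjusted p = 0.188). In Mcm2 and E2f1 the SO libraries all lay below the wild-type ones, and in Pcna the highest SO library met the lowest wild-type one at 8.31. The loading factor Cdc6 differed by -0.03, Rrm2 by 0.06 and Rrm1 by 0.02.

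The mitosis members that rose at E13.5 were Kif11, Aurkb, Aurka, Nusap1, Top2a and Tpx2. Kif11 had 7.55, 7.56 and 7.38 log2 CPM in SO, against 6.96, 7.08 and 7.31 in wild-type CD1 (fold 1.30, adjusted p = 0.0142). Aurkb had 6.70, 6.72 and 6.90 in SO, against 6.30, 6.46 and 6.57 in wild-type CD1 (0.33 ± 0.10, adjusted p = 0.0208). In both, the lowest SO library lay just above the highest wild-type library. Aurka had 6.83, 6.77 and 6.75 in SO, against 6.36, 6.31 and 6.63 in wild-type CD1 (0.35 ± 0.11, adjusted p = 0.0247). Nusap1 had 6.87, 6.95 and 6.89 in SO, against 6.42, 6.67 and 6.72 in wild-type CD1 (0.30 ± 0.10, adjusted p = 0.0415). Top2a had 9.57, 9.59 and 9.68 in SO, against 9.19, 9.41 and 9.42 in wild-type CD1 (0.27 ± 0.09, adjusted p = 0.0418). Replicate 1 of wild-type CD1 was lowest or next to lowest in each, and the groups did not overlap. Tpx2 rose by 0.24 ± 0.08 (adjusted p = 0.0484). Mki67, with 9.32, 9.22 and 9.22 log2 CPM in SO, against 9.13, 9.32 and 9.38 in wild-type CD1, overlapped and differed by -0.02.

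Many calls at E13.5 rested on single libraries. Without SO replicates 1, 2 or 3 the members that rose and fell numbered 1 and 8, 1 and 7, and 2 and 5, and without wild-type CD1 replicates 1 or 2 they numbered 0 and 8, and 3 and 5. Mcm6, Cdt1, Ccne1, Mcm3 and Mcm7 were called in all 6 fits that left out one library, Mcm5 and Gins2 in 4 and Mcm4 in 2. Among the mitosis members Kif11 was called in 3, Aurkb in 4, Aurka and Top2a in 2, and Nusap1 and Tpx2 in 1.

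At E13.5 nephron progenitor and macrophage marker sums were apart between SO and wild-type CD1, while erythroid, liver, endothelial and ureteric bud sums overlapped. Nephron progenitor markers (10 genes) summed to 142 to 201 CPM in SO, against 305 to 581 CPM in wild-type CD1. Macrophage markers (14 genes) summed to 522 to 1310 CPM in SO, against 355 to 486 CPM. Erythroid markers summed to 84 to 589 CPM in SO, against 50.3 to 4100 CPM, and liver markers to 0.449 to 3.14 CPM, against 0.691 to 843 CPM in wild-type CD1. Endothelial markers summed to 346 to 526 CPM in SO, against 93.8 to 1100 CPM, and ureteric bud markers to 76.9 to 143 CPM, against 62.5 to 402 CPM. Replicate 1 of wild-type CD1 at E13.5 was high in markers of other cells. It had 6.78 log2 CPM of Six2, against 4.06 and 4.15 in replicates 2 and 3. Its Pecam1 read 7.06, against 3.70 and 0.58, and its Epcam 5.32, against 2.55 and 1.79. With macrophage, endothelial and erythroid levels as covariates, Aurkb still rose and Mcm6, Cdt1 and Ccne1 still fell. Without the 2 libraries highest in the liver gene Alb, one of them replicate 3 of wild-type CD1 at E13.5, 5 members rose and 7 fell. Since the macrophage sums were apart, the covariate fit cannot tell genotype and macrophage content apart. The part of nephron progenitors was not tested.

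The difference between the SO effects at E13.5 and E12.5 was itself tested. Mcm6 (-0.43 ± 0.08, adjusted p = 0.00909) and Cdt1 (-0.48 ± 0.12, adjusted p = 0.0484) passed in the lower direction and 0 in the higher, where 0.609% and 0.717% of all genes did. Of the 38 members, 37 had a difference below 0, with a median of -0.23, against -0.01 for all genes. Rrm2 (-0.43, adjusted p = 0.0741) and Cenpf (-0.62 ± 0.19, adjusted p = 0.121) came next. For the other members the stages of the SO effect were not shown to differ. Mcm6 was called in all 12 fits that left out one library, and Cdt1 in 2 of them.

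Averaged over both stages, 14 members rose and 5 fell in SO, where 10.2% of all genes rose and 8.32% fell. The mitosis members that rose were 13 of 22, led by Kif11 (0.53 ± 0.07, adjusted p = 9.7e-06), Top2a (0.42, adjusted p = 3.68e-05), Aurkb (0.44, adjusted p = 4.23e-05), Nusap1 (0.42, adjusted p = 0.000118) and Aurka (0.42, adjusted p = 0.000192). Rrm2 was again the replication member that rose (0.27 ± 0.06, adjusted p = 0.00189). Mcm6 (-0.22 ± 0.04, adjusted p = 0.000286), Ccne1 (-0.34 ± 0.08, adjusted p = 0.00513), Cdt1, Mcm7 and Gins2 fell. With macrophage, endothelial and erythroid levels as covariates, 10 rose and 2 fell (Mcm6 and Ccne1).

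**Figure D2:**
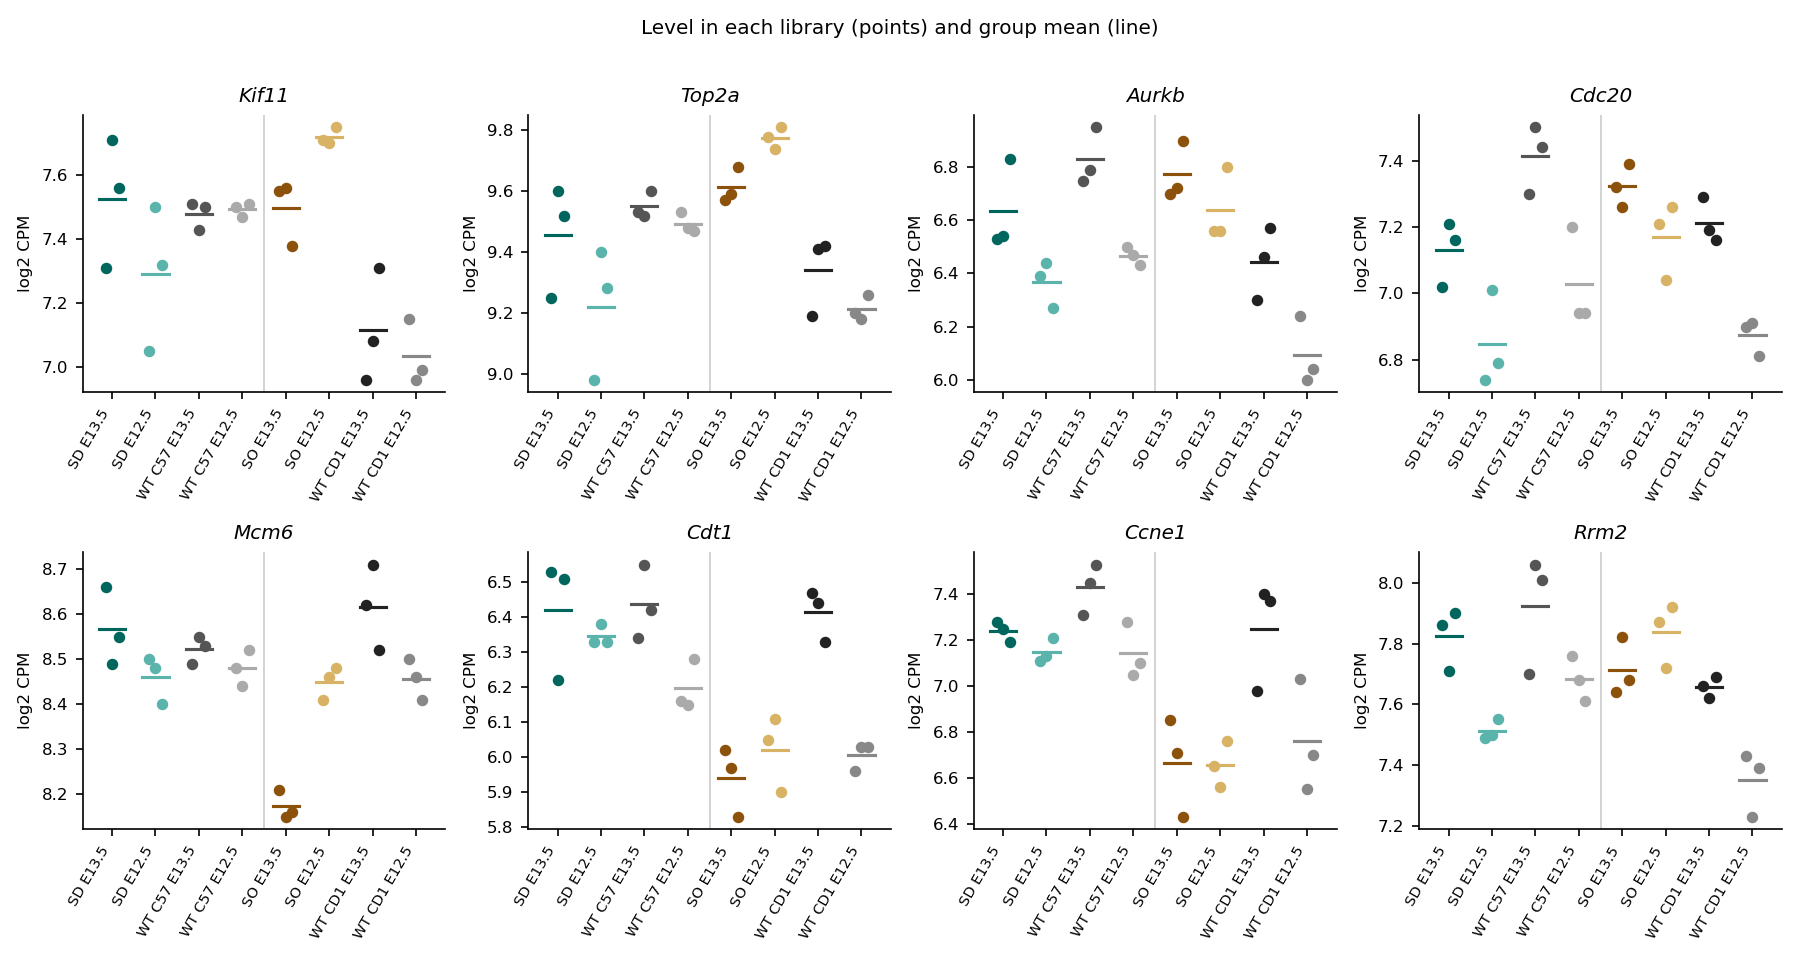
Level in log2 CPM (y axis) of 8 members in every library (points) of the 8 groups (x axis), with a line at each group mean. Kif11, Top2a and Aurkb are higher in SO than in wild-type CD1 at both stages, and Mcm6 in SO at E13.5 lies at 8.15 to 8.21, below all other libraries.

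The balance of mitosis to replication RNA set the SO libraries apart from the others. The mean log2 CPM of the 22 mitosis members minus that of the 16 replication members was 0.20, 0.22 and 0.36 in SO at E13.5. At E12.5 it was 0.18, 0.15 and 0.21 in SO. In the other 18 libraries it lay between -0.34 (SD at E13.5, replicate 1) and 0 (wild-type CD1 at E13.5, replicate 3), so no other library reached the SO range. These means give every member equal weight, and no p is given for them.

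**Figure D3:**
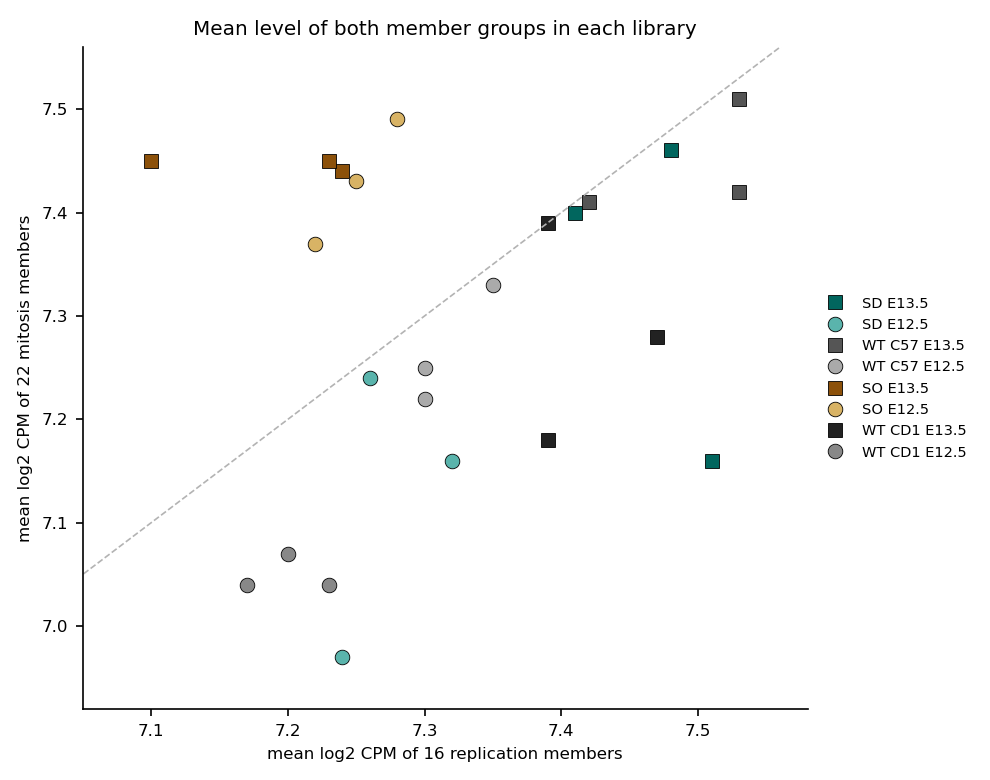
Mean log2 CPM of the 22 mitosis members (y axis) against that of the 16 replication members (x axis) in each of the 24 libraries, with squares for E13.5, circles for E12.5, colours for the line and a dashed line where both are equal. All 6 SO libraries lie above the dashed line, and the other 18 lie below it or touch it.

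In SD stroma no member passed the test at either stage. Of the 38 members 0 rose and 0 fell at E13.5, where 1.33% of all genes rose and 2.07% fell, and 0 rose and 0 fell at E12.5, where 0.985% rose and 0.732% fell. At an unadjusted p under 0.05, limma gave 4 members at E13.5 and 8 at E12.5, but the share of all genes at that threshold was not counted. Of the mitosis members, 18 of 22 lay below 0 at E13.5 (median -0.12) and 20 of 22 at E12.5 (median -0.17). This lean was not tested. The share of all genes below 0 is not set beside it, so it is not read as a result about the members.

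The members of smallest p at E13.5 were Cdc20 (-0.29 ± 0.09, adjusted p = 0.0689), Plk1 (-0.30 ± 0.11, adjusted p = 0.135), Aurka (-0.27, adjusted p = 0.194) and the cytokinesis motor Kif23 (-0.26, adjusted p = 0.253). Plk1 had 6.79, 6.95 and 7.25 log2 CPM in SD, against 7.22, 7.42 and 7.26 in wild-type C57BL/6, so the groups overlapped. At E12.5 they were Bub1 (-0.27 ± 0.09, adjusted p = 0.123), Top2a (-0.27 ± 0.09, adjusted p = 0.137), Cdc6 (-0.23, adjusted p = 0.247) and Tpx2 (-0.19, adjusted p = 0.278). Bub1 had 6.67, 6.84 and 6.70 in SD, against 7.02, 7.13 and 6.87 in wild-type C57BL/6. Top2a had 8.98, 9.40 and 9.28 in SD, against 9.53, 9.48 and 9.47 in wild-type C57BL/6, with replicate 1 of SD far below the others. In both genes every SD library at E12.5 lay below every wild-type one, and the interval of the Top2a difference ran from -0.46 to -0.08.

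Replicate 1 of SD stood apart in the mitosis members at both stages. The mean level of the 22 was 6.97 log2 CPM there at E12.5, the lowest of the 24 libraries. Kif11 read 7.31, 7.71 and 7.56 in SD at E13.5, against 7.51, 7.43 and 7.50 in wild-type C57BL/6, and 7.05, 7.50 and 7.32 in SD at E12.5, against 7.50, 7.47 and 7.51. The wild-type values spread by under 0.1 while those of SD spanned the wild-type range at E13.5.

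Over both stages 1 member fell in SD and 0 rose, where 3.71% of all genes fell and 3.46% rose. The counts are no more than these shares, and the member that fell was Cdc20. It had 7.02, 7.21 and 7.16 log2 CPM in SD at E13.5, against 7.30, 7.50 and 7.44 in wild-type C57BL/6, and 6.74, 7.01 and 6.79 in SD at E12.5, against 7.20, 6.94 and 6.94. The groups overlapped at E12.5 and did not at E13.5, and the mean difference was -0.23 ± 0.06, a fold of 0.85 (adjusted p = 0.0179). The call was lost, with adjusted p up to 0.0611, without replicate 1 of SD at E13.5, replicate 1 of wild-type C57BL/6 at E12.5 or replicate 2 of wild-type C57BL/6 at E13.5. It was also lost with macrophage, endothelial and erythroid levels as covariates and in a fit of the 12 libraries of SD and its wild-type alone, each of which called 0 members. Next came Aurka (-0.24 ± 0.07, adjusted p = 0.0568), Bub1 (-0.19, adjusted p = 0.0631) and Plk1 (-0.23, adjusted p = 0.0655), and the count of members that fell was 6 without replicate 2 of SD at E12.5.

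None of the 16 replication members passed in SD averaged over stages, and their differences lay between -0.13 and 0.07, with 9 below 0 and a median of -0.04. The lowest were Rrm2 at -0.13 (95% interval -0.26 to -0.01) and Mcm5 at -0.10 (-0.19 to -0.01), the 2 with an unadjusted p under 0.05. The highest was Cdt1 at 0.07 (-0.06 to 0.19), and Mcm6 differed by 0.01 (-0.07 to 0.10). The SD effect at E13.5 minus that at E12.5 passed for 0 members, where 0% of all genes passed in either direction, and limma gave 0 members an unadjusted p under 0.05. In the SD sorts, macrophage markers summed to 21.4 to 56.1 CPM at E13.5, against 218 to 358 CPM in wild-type C57BL/6, and to 93.1 to 220 CPM at E12.5, against 130 to 808 CPM. Nephron progenitor markers summed to 451 to 481 CPM in SD at E13.5, against 340 to 356 CPM, and to 294 to 418 CPM at E12.5, against 198 to 222 CPM in wild-type C57BL/6. Erythroid markers summed to 29.3 to 63.1 CPM in SD at E13.5, against 53.3 to 1200 CPM, and to 19.7 to 74.3 CPM at E12.5, against 583 to 851 CPM in wild-type C57BL/6. Endothelial markers summed to 118 to 200 CPM in SD at E13.5, against 204 to 213 CPM in wild-type C57BL/6, and 7 of the 14 fell there (median log2 difference -3.12).

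The SD effect minus the SO effect, each against its own wild-type and averaged over stages, separated the lines for 20 members. It was higher for 3 and lower for 17, where it was higher for 8.05% and lower for 9.87% of all genes. The count of 3 lies near the share of all genes that were higher. The 17 were 16 mitosis members and Rrm2, led by Top2a (-0.60 ± 0.09, adjusted p = 3.68e-05), Aurka (-0.66 ± 0.11, adjusted p = 7.5e-05), Aurkb (-0.59, adjusted p = 0.000103), Bub1 (-0.52, adjusted p = 0.000138) and Kif11 (-0.61, adjusted p = 0.000166). Tpx2, Nusap1, Plk1, Cdc20, Rrm2, Ccna2 and Kif20a followed, between -0.39 and -0.54. The 3 higher ones were Mcm6 (0.24 ± 0.06, adjusted p = 0.00517), Cdt1 (0.30 ± 0.09, adjusted p = 0.0176) and Mcm7 (0.18 ± 0.06, adjusted p = 0.0491). With macrophage, endothelial and erythroid levels as covariates 0 were higher and 13 lower, and Mcm7 was called in 7 of 24 fits that left out one library. SD is on C57BL/6 and SO on CD1, so genotype, strain and colony cannot be told apart in this difference.

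The members were mostly higher at E13.5 than at E12.5. Averaged over SD, SO and both wild-types, 24 of 38 rose and 0 fell, where 10.4% of all genes rose and 11.1% fell. They were 10 of the 16 replication members and 14 of the 22 mitosis members, and 37 of the 38 lay above 0, with a median of 0.15, against 0 for all genes. The differences were small: the largest, of Cdc20, was 0.29 ± 0.04 (adjusted p = 5.33e-05).

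Ccna2 (0.25 ± 0.04, adjusted p = 0.000143), Cdk1 (0.27 ± 0.04, adjusted p = 0.000176), Aurkb (0.28 ± 0.05, adjusted p = 0.000246), the mitotic cyclin Ccnb2 (0.24, adjusted p = 0.00091) and Kif23 (0.28, adjusted p = 0.00105) rose among the mitosis members. Pcna (0.20 ± 0.04, adjusted p = 0.000453), Tyms, which makes thymidylate (0.19, adjusted p = 0.00102), Gins2 (0.19, adjusted p = 0.00119), Mcm7 (0.14, adjusted p = 0.00179), Cdc6 (0.21, adjusted p = 0.00224) and Mcm5 (0.14, adjusted p = 0.00235) rose among the replication members. Kif11 differed by 0.02, Top2a by 0.06, Mcm6 by 0.01 and Mki67 by 0.06 between stages, and none of these passed. With macrophage, endothelial and erythroid levels as covariates, 14 members rose.

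Within each line the stage difference rested on 3 libraries against 3. In SD 0 members passed, where 0.0869% of all genes rose and 0.188% fell, though the median was 0.21. The members of smallest p in SD were Cdc6 (0.37 ± 0.09, adjusted p = 0.067), Mcm5 (0.24, adjusted p = 0.0953), Pcna (0.27, adjusted p = 0.0984) and Rrm2 (0.31, adjusted p = 0.103). An unadjusted p under 0.05 in limma was found for 25 members, but the share of all genes at that threshold was not counted. In SO 0 members rose and 2 fell, where 3.01% of all genes rose and 4.09% fell, so the count that fell lies near that share. The 2 were Mcm6, with 8.21, 8.15 and 8.16 log2 CPM at E13.5, against 8.41, 8.46 and 8.48 at E12.5 (-0.27 ± 0.06, adjusted p = 0.00593), and Mcm4 (-0.23 ± 0.07, adjusted p = 0.0498). Mcm4 lost its call without any one of 5 of the 6 SO libraries, the exception being replicate 1 at E13.5.

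In wild-type C57BL/6, 7 members rose and 0 fell with age, where 2.08% of all genes rose and 1.88% fell. They were Cdc20 (0.39 ± 0.09, adjusted p = 0.0163), Mcm7 (0.27, adjusted p = 0.0193), Tyms (0.30, adjusted p = 0.0269), Aurkb (0.37, adjusted p = 0.0333), Mcm5 (0.22, adjusted p = 0.049), Ccna2 (0.29, adjusted p = 0.0496) and Ccnb2 (0.34, adjusted p = 0.0496). Leaving out one library gave 0 called without replicates 2 or 3 at E13.5, 1 without replicates 2 or 3 at E12.5 and 3 without replicate 1 at E12.5. A fit of the 12 C57BL/6 libraries (SD and wild-type) alone called 0, one without the 2 libraries highest in Alb called 1, and one without the variance trend called 3.

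In wild-type CD1, 9 rose and 0 fell, where 2.42% of all genes rose and 3% fell. Cdt1, with 6.47, 6.44 and 6.33 log2 CPM at E13.5, against 5.96, 6.03 and 6.03 at E12.5, led them (0.40 ± 0.09, adjusted p = 0.00791). The others were Ccna2 (0.38, adjusted p = 0.00801), Gins2 (0.32, adjusted p = 0.0178), Ccne1 (0.49, adjusted p = 0.0185), Cdc20 (0.34, adjusted p = 0.0206), Tyms, Rrm2, Aurkb and Kif23. The count was 2 without replicate 3 at E12.5, 3 without replicate 2 at E12.5 or replicate 3 at E13.5, and 5 without replicate 2 at E13.5. It was 3 without the 2 libraries highest in Alb, 4 with macrophage, endothelial and erythroid covariates and 5 in the 12 CD1 libraries (SO and wild-type) alone. The stage difference in wild-type CD1 and the SO effect at E13.5 share the same wild-type CD1 libraries. For Cdt1 the values side by side were 5.94 ± 0.10 log2 CPM (standard deviation, n = 3 each) for SO at E13.5, 6.02 ± 0.11 for SO at E12.5, 6.41 ± 0.07 in wild-type CD1 at E13.5 and 6.01 ± 0.04 in wild-type CD1 at E12.5.

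**Figure D4:**
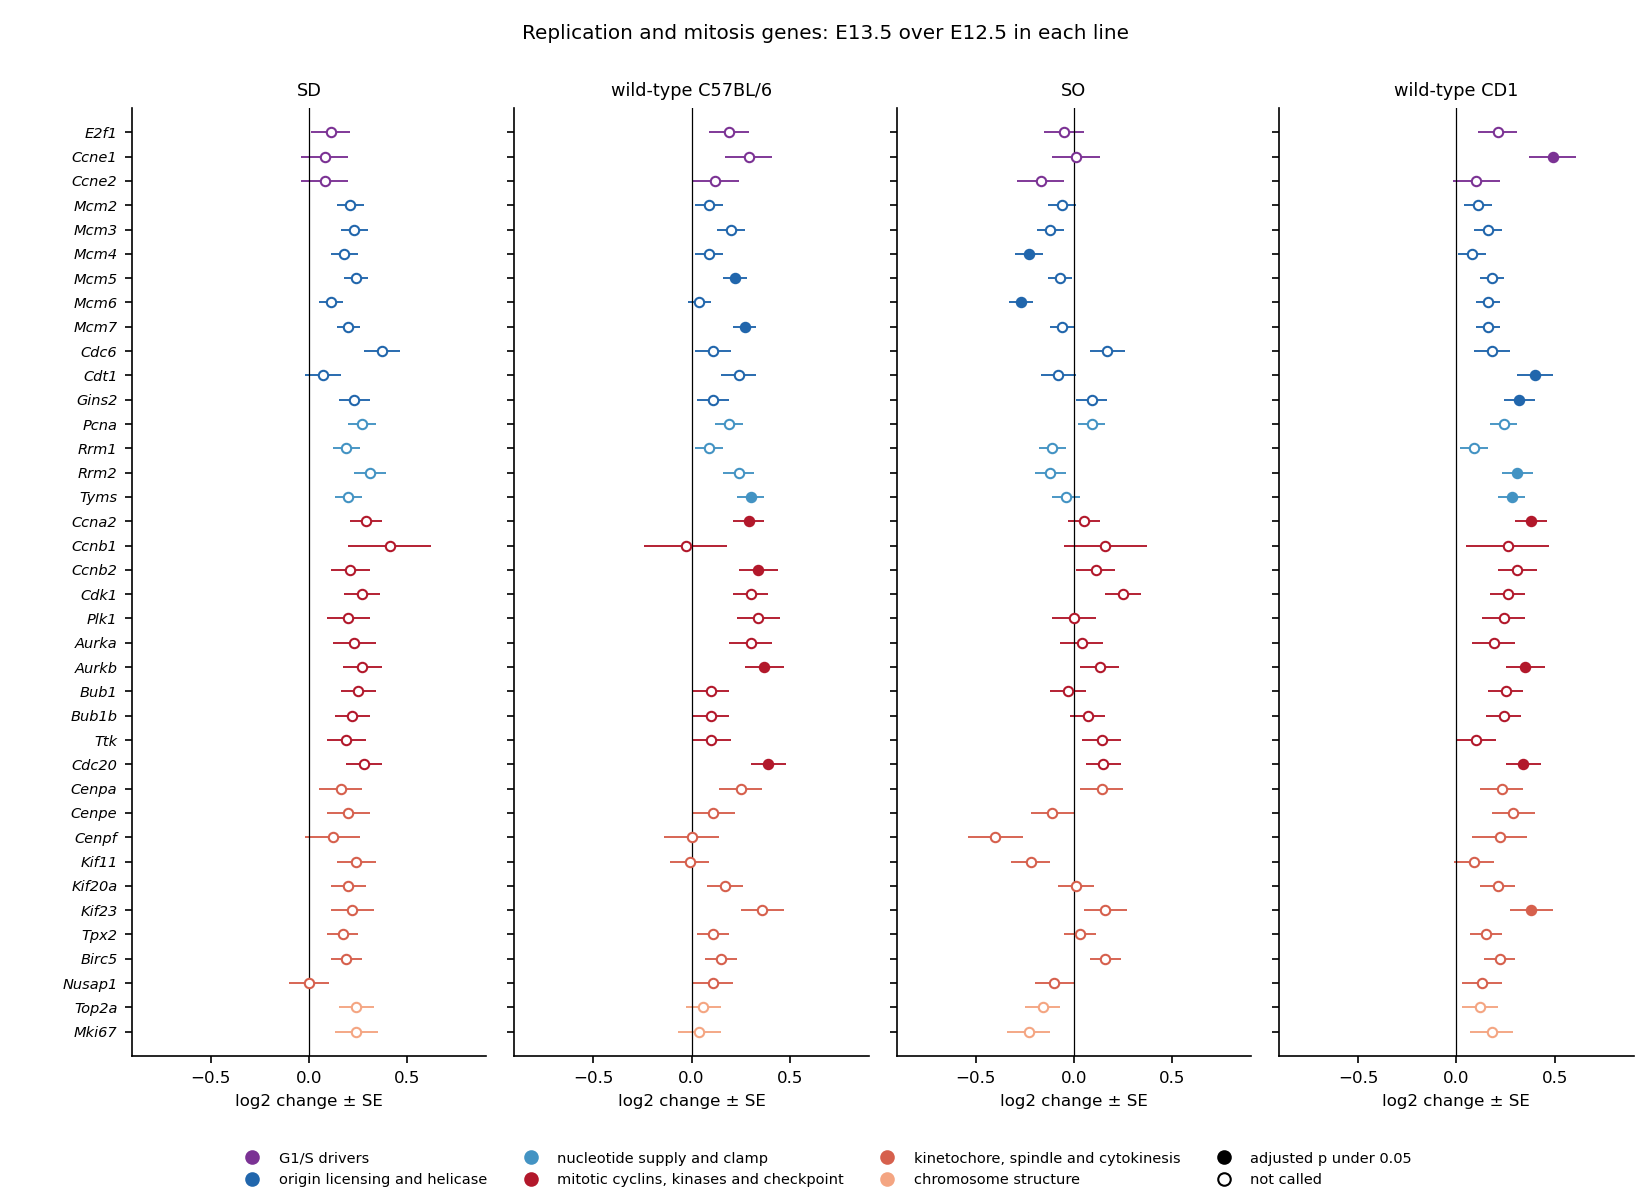
Log2 difference (SE as bars) of each member at E13.5 over E12.5, on the x axis, in SD, wild-type C57BL/6, SO and wild-type CD1, with filled points for adjusted p under 0.05. Most members lie right of 0 in SD and in both wild-types, while in SO the median is -0.02 and Mcm6 and Mcm4 are filled left of 0.

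Wild-type stroma of the 2 strains also differed in some members. The strain difference and the SO effects are both taken against the same wild-type CD1 libraries, so they are not independent. Averaged over stages, 9 members were higher and 0 lower in C57BL/6 than in CD1, where 2.62% of all genes were higher and 1.85% lower. Aurkb had 6.75, 6.79 and 6.95 log2 CPM in C57BL/6 at E13.5, against 6.30, 6.46 and 6.57 in CD1, and 6.50, 6.47 and 6.43 in C57BL/6 at E12.5, against 6.24, 6.00 and 6.04 in CD1. The strains did not overlap at either stage, and the mean difference was 0.38 ± 0.07 (adjusted p = 0.00273). Kif11 (0.41 ± 0.07, adjusted p = 0.00297), Rrm2 (0.30, adjusted p = 0.00621), Bub1 (0.28, adjusted p = 0.0135), Ccna2 (0.25, adjusted p = 0.0174), Ccnb2 (0.29, adjusted p = 0.0197), Top2a (0.24, adjusted p = 0.0349), Aurka (0.28, adjusted p = 0.0358) and the centromeric histone Cenpa (0.28, adjusted p = 0.0396) were also higher. None of the 6 MCM subunits passed, and their median difference was 0.05. Kif11 in SO, at 7.50 ± 0.10 log2 CPM at E13.5 and 7.72 ± 0.02 at E12.5, stood beside 7.48 ± 0.05 and 7.49 ± 0.02 in wild-type C57BL/6 at the same ages and 7.12 ± 0.18 and 7.04 ± 0.10 in wild-type CD1 (standard deviation, n = 3 each).

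At single stages the strain difference was called for Kif11 alone at E12.5 (0.46 ± 0.10, adjusted p = 0.0436), where 0.384% of all genes were higher and 0.159% lower, ahead of Bub1 (0.36, adjusted p = 0.0656), Rrm2 and Aurkb. The Kif11 call held in 1 of 6 fits that left out one library (adjusted p up to 0.172), and was lost without the variance trend and with macrophage, endothelial and erythroid covariates. At E13.5 it was called for 0 members, where 0.333% of all genes were higher and 0.0869% lower. An unadjusted p under 0.05 in limma was found for 14 members, but the share of all genes at that threshold was not counted. The members of smallest p at E13.5 were Aurkb (0.39, adjusted p = 0.076), Kif11 (0.36, adjusted p = 0.133), Aurka (0.33, adjusted p = 0.175) and Rrm2 (0.26, adjusted p = 0.182). For the mean over stages, 1 member was called with macrophage, endothelial and erythroid levels as covariates. Leaving out one library gave 4 called without C57BL/6 replicate 1 at E12.5 or replicate 3 at E13.5, 5 without CD1 replicate 2 at E12.5 or replicate 1 at E13.5, and 13 without CD1 replicate 3 at E13.5.

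Other mitotic genes, a list of 82 that excludes the members, had rising members and none that fell in SO. In SO 14 rose and 0 fell at E13.5, where 8.53% of all genes rose, led by Gtse1 (0.42, adjusted p = 0.00155), Iqgap3 (0.50, adjusted p = 0.00182) and Cenpl (0.66, adjusted p = 0.00511). At E12.5 37 rose and 0 fell, where 5.17% of all genes rose, led by the kinetochore gene Spc24 (0.84, adjusted p = 0.000177), the transcription factor Foxm1 (0.57, adjusted p = 0.000211) and Cdca2 (0.55, adjusted p = 0.000335), with a median of 0.35, against 0 for all genes. In SD 0 rose and 1 fell at E13.5 (Kpna2, -0.30, adjusted p = 0.0392), and 0 rose and 2 fell at E12.5: Ncaph, a condensin subunit (-0.32, adjusted p = 0.0229), and Mybl2, which encodes B-Myb (-0.47, adjusted p = 0.0235). With stage 42 rose and 0 fell, where 10.4% of all genes rose. In wild-type cells 22 were higher in C57BL/6 than in CD1, where 2.62% of all genes were, led by the condensin subunit Ncapd2 (0.69, adjusted p = 2.8e-06).

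Other replication genes, a list of 55, had a median of -0.15 in SO at E13.5, against -0.01 for all genes, and of 0.12 at E12.5, against 0. Whether the list differed between stages was not tested. At E13.5 16 fell and 0 rose, where 6.83% of all genes fell, led by Dut, which clears dUTP (-0.61, adjusted p = 6.49e-05), the DNA ligase Lig1 (-0.37, adjusted p = 0.00164) and the fork protein Timeless (-0.31, adjusted p = 0.00267). At E12.5 3 rose and 0 fell, near the 5.17% of all genes that rose, among them Dbf4, the partner of the origin-firing kinase Cdc7 (0.47, adjusted p = 0.0018), and the histone chaperone Asf1b (0.42, adjusted p = 0.0286). In SD 0 passed at E13.5 and 0 at E12.5. With stage 12 rose and 0 fell, where 10.4% of all genes rose.

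Among 20 G1 cyclins, CDKs and their inhibitors, the lines differed in both directions. Cdk6, a G1 kinase, rose in SO at E13.5 (0.82, adjusted p = 2.31e-06) and E12.5 (0.86, adjusted p = 3.35e-06). The CDK inhibitor Cdkn1c fell in SO at E13.5 (-0.59, adjusted p = 1.48e-05) and E12.5 (-0.41, adjusted p = 0.00211), and rose in SD at E13.5 (0.30, adjusted p = 0.0432) and E12.5 (0.41, adjusted p = 0.00893). Mycn, a growth-promoting transcription factor, fell at E13.5 in SO (-0.84, adjusted p = 1.88e-05) and in SD (-0.54, adjusted p = 0.0114). In all, 3 of the 20 rose and 3 fell in SO at E13.5, where 8.53% of all genes rose and 6.83% fell, and 3 rose and 1 fell at E12.5, where 5.17% rose and 3% fell.

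Of 18 genes of the RB, E2F and DREAM group, 2 rose and 1 fell in SO at E13.5, while 0 passed in SD. At E12.5 3 rose and 0 fell in SO, where 5.17% of all genes rose and 3% fell. The E13.5 counts lie near the background shares of 8.53% and 6.83%. They included the repressor E2f7 (0.33, adjusted p = 0.0164 at E13.5) and Rb1 (0.66, adjusted p = 0.0203), with E2f2 lower (-0.53, adjusted p = 0.0484). Of 15 p53 targets, 2 rose and 2 fell in SO at E13.5, where 8.53% of all genes rose and 6.83% fell. Btg2, an antiproliferative gene, fell (-1.07, adjusted p = 3.82e-05), while Plk2 (1.02, adjusted p = 0.000149) and Phlda3 (0.53, adjusted p = 0.00217) rose. Of 31 replication-dependent histone genes, 0 rose and 0 fell in SO at E13.5, and 1 rose and 1 fell at E12.5.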

How the data were processed

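Stromal cells of 24 libraries were sequenced on Illumina HiSeq, and the authors deposited one table of log2 CPM values. Per the submitters' processing notes, HISAT2, HTSeq, limma and the mm10 build were used, without versions. The deposited log2 values are CPM after TMM scaling with 0.5 read added, since 100% of them gave whole reads within 0.1 when that scale was undone. Column names gave the library of all 24 columns. Group means of all 8 groups were fitted with limma 3.58.1 in R 4.3.3, with a mean-variance trend (16 residual and 6.43 prior degrees of freedom). There were 17 contrasts with 2-sided p-values, adjusted by Benjamini-Hochberg over 13803 genes at 0.05. The fit was tested on simulated data first. The members and lists were chosen with earlier results of these data known. The text gives up to 12 called members per contrast by smallest p, 4 members where fewer than 4 were called, library values for a fixed set of members, and up to 3 called genes per list. One listed gene, Cdkn2b, is given no fold because its wild-type levels lay near 0 reads. One other listed gene is not reported here. Promoters and gene positions come from RefSeq (GRCm38.p6) and GENCODE M21 (GRCm38), and transcripts were compared with BLAST 2.17.0. Depth averaged 6.43 to 15.4 M reads per group, and every member had 277 reads or more in each library. Counting error was not compared with the spread between libraries. That spread was small in some groups, such as 0.01 log2 CPM (standard deviation) for Cdc6 in wild-type C57BL/6 at E13.5. Alternatives were other scalings, added reads, filters, weights, covariates and left-out libraries. Count-model tests were not run on log2 values.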

Additional observations from a re-analysis of the deposited data

Results flagged for a closer look

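The SO effect differed between stages for 2 members in a test of the difference itself. For Mcm6 the SO effect was -0.44 at E13.5 and -0.01 at E12.5, a difference of -0.43 ± 0.08 on the log2 scale (limma, adjusted p = 0.00909). Leaving out one library at a time gave -0.48 to -0.39, with adjusted p between 0.0083 and 0.0365, and Mcm6 was called in 12 of 12 fits. For Cdt1 the SO effect was -0.47 at E13.5 and 0.01 at E12.5, a difference of -0.48 ± 0.12 (adjusted p = 0.0484). Leaving out one library gave -0.55 to -0.43 with adjusted p between 0.0427 and 0.135, and Cdt1 was called in 2 of 12 fits. Cdt1 rose with stage in wild-type CD1 by 0.40, and those libraries enter the difference.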

How the results depend on the processing

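Over 168 alternatives to the counts of called members, 133 stayed within 1.5 times of the reported count and 35 did not; of the members' own values, 1315 kept direction and call, 160 lost the call, 11 gained it and 0 reversed. The cause of these changes was not tested. With macrophage, endothelial and erythroid covariates the counts were 0 for SD averaged over stages, 7, 4 and 12 for SO at E12.5, at E13.5 and averaged, 1 for the SO stage difference, 13 for SD minus SO, 1, 4 and 14 for stage in SO, in wild-type CD1 and over the 4 lines, and 0 and 1 for strain at E12.5 and averaged. Without the 2 libraries highest in Alb they were 3 for SD averaged, 1 for the SO stage difference, 1, 1, 1 and 3 for stage in SD, SO, wild-type C57BL/6 and wild-type CD1, and 4 and 1 for strain at E12.5 and E13.5. With the 12 libraries of the strain alone they were 0 for SD averaged and 0 and 5 for stage in wild-type C57BL/6 and CD1. Without the variance trend they were 1 for the SO stage difference, 1 and 3 for stage in SO and wild-type C57BL/6, and 0 for strain at E12.5. With voom weights, and with the liver covariate chosen after seeing the data, they were 1 for the SO stage difference and 1 for stage in SO. With size factors in place of TMM (median shift -0.02 to 0.01) they were 3 for SD averaged and 1 for the SO stage difference. Replicate numbers did not pair libraries (correlations of deviations -0.143 to 0.276 over 12 pairs, own number best in 5 of 12). With the replicate block the counts were 2 for SD averaged, 1 for the SO stage difference and 1 for stage in SO, and every other count stayed within 1.5 times. Leaving out one library gave 0 to 0, 0 to 1 and 0 to 6 for SD at E12.5, at E13.5 and averaged, 10 to 14, 7 to 13 and 17 to 21 for SO, 0 to 0 and 1 to 3 for the SD and SO stage differences, 15 to 21 for SD minus SO, 0 to 1, 1 to 3, 0 to 7, 2 to 9 and 23 to 26 for stage in SD, SO, wild-type C57BL/6, wild-type CD1 and over the 4 lines, and 0 to 3, 0 to 1 and 4 to 13 for strain at E12.5, at E13.5 and averaged. A longer CCAAT word lay in 28.6% of replication and 61.1% of mitosis windows. The planned count-model tests were not run because the values are log2 CPM. Strain goes with line.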
